A study of Mus musculus with 11 samples.

Results

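The galectin genes Lgals1, Lgals3, Lgals4, Lgals8 and Lgals9 and the galectin-binding glycoprotein gene Lgals3bp were followed in brain tumors of mice and in normal mouse brain. They were chosen by symbol, as 6 of the 24320 genes in the deposited expression table. Tumors were induced with the Sleeping Beauty system, in which a transposase inserts plasmid-borne genes into host DNA. Newborn mice received, in the right lateral ventricle, plasmids for the transposase, firefly luciferase and the large T antigen of SV40 (SV40LgT), together with either constitutively active NRAS (G12V) in 4 NRAS tumors or PDGFB in 4 PDGFB tumors. Tumor tissue was taken at a middle stage of growth, dissected by its GFP signal, and 3 normal brain samples labelled WT control served as the reference. The sources used here give neither the age at sampling nor the promoters on the plasmids. All sample labels name the strain B6 except that of normal brain 3, which names FVB, as the series text does for the mice in general. By their titles, normal brain 1 was matched with NRAS tumor 2, and normal brain 3 with PDGFB tumor 1. Nothing in the labels says that the replicates of a group are separate animals, and p-values here reflect sample spread alone, which may be technical.

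Galectins are soluble lectins that bind beta-galactoside sugars on glycoproteins through a conserved carbohydrate recognition domain. They are made in the cytosol without a signal peptide, leave cells by an unconventional route and cross-link glycans on cell surfaces and in the matrix. Lgals1 encodes a small galectin that pairs with itself, Lgals3 the galectin with a long flexible tail that lets it multimerise, and Lgals4, Lgals8 and Lgals9 encode galectins with a pair of recognition domains in tandem. Lgals3bp encodes a secreted glycoprotein that binds galectins and is not a lectin of this family itself. In glioma, Lgals1 and Lgals3 are known as genes of invasive and mesenchymal tumors and of tumor macrophages, while Lgals9 and Lgals3bp are known targets of interferon.

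Values were FPKM, that is, sequenced fragments divided by transcript length and by library size, as the authors deposited them, so the number of reads is unknown. Steps between low values put every library at 0.776 or more of the depth of the deepest. This relative depth was 0.931 to 1 in NRAS tumors, 0.85 to 0.89 in PDGFB tumors and 0.776 to 0.814 in normal brain. It thus differed between the groups without overlap, in the order of the summed galectin levels given below. Between 12705 and 13923 genes reached 1 FPKM per library. The plasmid genes matched the labels: Nras stood at 82.0 to 154 FPKM in NRAS tumors, against 31.7 to 42.9 in PDGFB tumors, and Pdgfb at 745 to 1564 FPKM in PDGFB tumors, against 5.15 to 7.8 in NRAS tumors. The tissue labels were checked by the summed FPKM of 6 neuron markers, which was 208 to 1089.6 in NRAS tumors, 109.6 to 594 in PDGFB tumors and 2121 to 2570.4 in normal brain. NRAS tumor 2 held more neuron RNA than any other tumor library. In bulk tissue, fewer cells of a type and less RNA per cell cannot be told apart. Numbers in the titles fall into a series from 1834 to 1838 (NRAS tumors 1 and 2 and the normal brains) and a series from 2038 to 2046 (NRAS tumors 3 and 4 and the PDGFB tumors), whose meaning is not given, and no series holds both PDGFB tumors and normal brain.

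Summed over the 6 genes, galectin RNA was most abundant in NRAS tumors, intermediate in PDGFB tumors and lowest in normal brain, and Lgals1 was its largest part in every library. Against normal brain, 5 of the 6 genes rose in NRAS tumors (Lgals1, Lgals3, Lgals3bp, Lgals8 and Lgals9) and none fell, where 32.0% of all 14491 genes tested rose and 30.3% fell. PDGFB tumors had 3 of 6 higher (Lgals1, Lgals3 and Lgals9) and 1 lower (Lgals4), where 29.3% of all genes rose and 29.2% fell. Between the models, all 6 were higher in NRAS tumors than in PDGFB tumors, where 14.3% of all genes were higher and 12.2% lower. That count was 3 without PDGFB tumor 3, and the count for PDGFB tumors against normal brain was 2 when the title number series, explained above, entered as a covariate. In either direction, 62.3%, 58.5% and 26.6% of all genes passed in these 3 comparisons. Groups did not overlap for 5 of the 6 genes in NRAS tumors against normal brain, all higher, where 33.2% of all genes were higher and 31.9% lower without overlap. In PDGFB tumors against normal brain this held for 4 higher genes and 1 lower one, where the shares over all genes were 33.8% and 32.0%. Between the models it held for 5 genes, all but Lgals9 and all higher in NRAS tumors, where the shares were 12.9% and 11.6%. The median log2 fold change of the 6 genes was 3.47 in NRAS tumors, 1.36 in PDGFB tumors and 1.95 between the models, beside 0.01, 0.04 and -0.04 over all genes tested in the same order. Calls rest on limma, with p-values adjusted by Benjamini-Hochberg over every gene tested, at a threshold of 0.05, with fold changes on the log2(FPKM + 1) scale, which understates changes of low genes. All 6 genes passed the filter, set at 1 FPKM in any 3 libraries, Lgals3 only through the tumor libraries. Both comparisons with normal brain share the same 3 normal libraries.

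**Figure D1:**
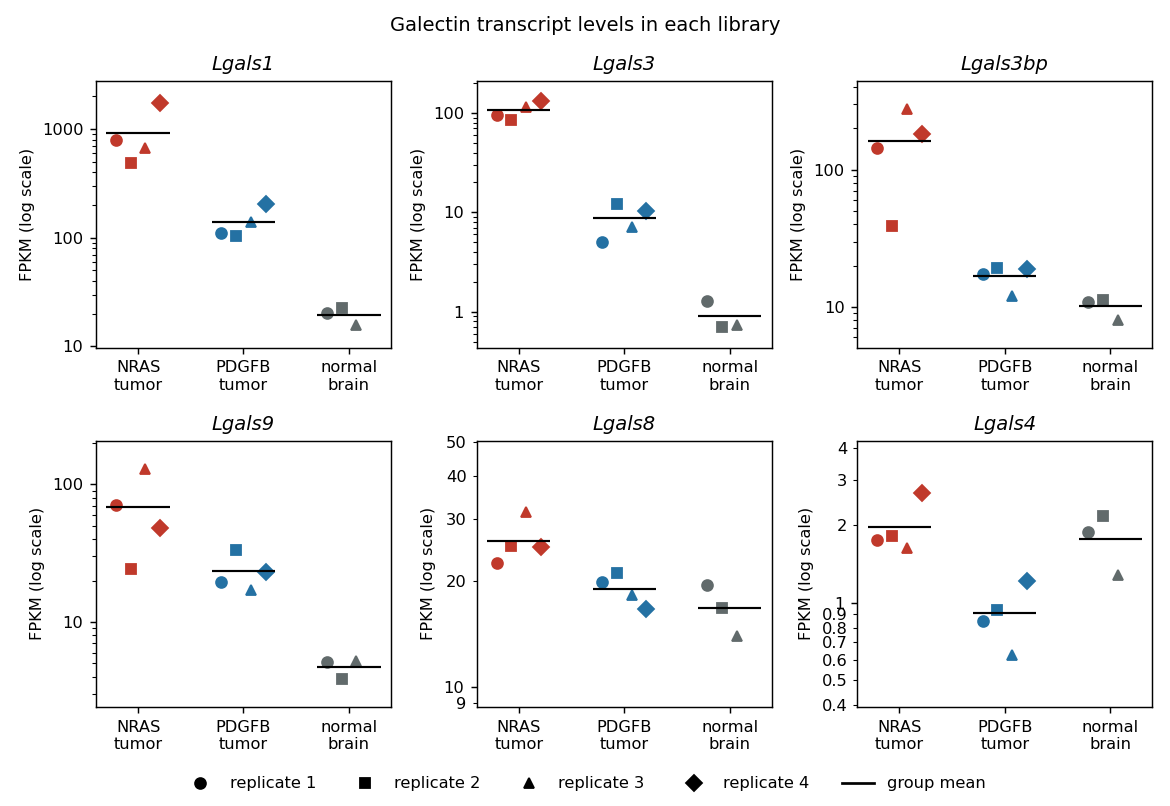
FPKM of each galectin gene (log axis, one panel per gene) in each library, with NRAS tumors, PDGFB tumors and normal brain from left to right, a marker shape per replicate number and a bar at the group mean. The groups are fully separate for Lgals1 and Lgals3, while NRAS tumor 2 lies among the PDGFB tumors for Lgals9 and the groups lie close together for Lgals8 and Lgals4.

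The summed FPKM of the 6 genes was 1128, 658, 1215 and 2116 across NRAS tumors 1 to 4, 172, 191, 194 and 273 across PDGFB tumors 1 to 4, and 59.1, 57.4 and 44.9 across normal brains 1 to 3. The 3 groups did not overlap. Since FPKM is scaled by length, the genes can also be set against each other within a library. Lgals1 made up 70.0% ± 11.4 of the sum in NRAS tumors, 65.9% ± 8.996 in PDGFB tumors and 36.3% ± 2.83 in normal brain (SD, n = 4, 4 and 3). Lgals8 held 2.4% ± 1.11 in NRAS tumors and 9.55% ± 2.47 in PDGFB tumors, against 31.0% ± 1.92 in normal brain, where it was nearly as abundant as Lgals1. Lgals3 held 9.19% ± 2.74 in NRAS tumors, 4.21% ± 1.52 in PDGFB tumors and 1.67% ± 0.479 in normal brain.

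**Figure D2:**
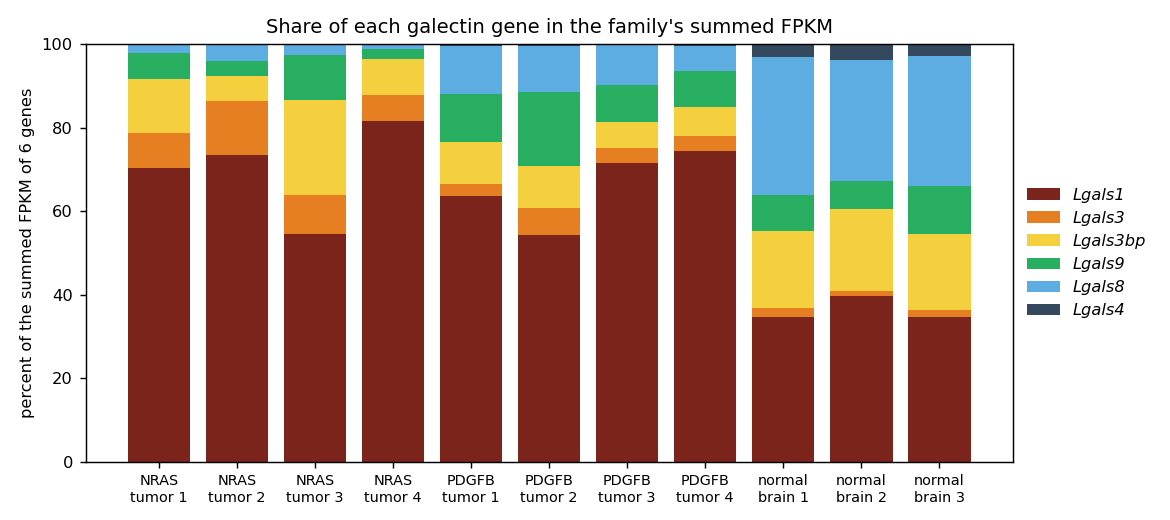
Percent of the summed FPKM of 6 galectin genes taken by each gene (stacked bars) in each library, with NRAS tumors, PDGFB tumors and normal brain from left to right. The share of Lgals1 is 54.5% to 81.6% in NRAS tumors, 54.3% to 74.3% in PDGFB tumors and 34.6% to 39.6% in normal brain, where Lgals8 holds 29.1% to 32.9%.

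Lgals1, a protein-coding gene on chromosome 15 at 78926725 to 78930465 (GRCm38, the assembly of the authors' mm10), had the highest level of the 6 genes in every library. It measured 794, 484, 662 and 1726 FPKM across NRAS tumors 1 to 4, 109.6, 103, 139 and 202 FPKM across PDGFB tumors 1 to 4, and 20.4, 22.7 and 15.6 FPKM across normal brains 1 to 3. Every NRAS tumor was above every PDGFB tumor, and every PDGFB tumor above every normal brain. The mean in NRAS tumors was 46.8 times that in normal brain (log2 fold change 5.32 ± 0.38 SE, adjusted p = 3.82e-06). PDGFB tumors had 7.07 times the mean of normal brain (log2 fold change 2.72 ± 0.38 SE, adjusted p = 0.000188). NRAS tumors had 6.62 times the mean of PDGFB tumors (log2 fold change 2.60 ± 0.35 SE, adjusted p = 0.000834). NRAS tumor 4 was far above the other 3, and the log2 fold change of NRAS tumors without it was 4.96 against normal brain and 2.24 against PDGFB tumors.

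Lgals3 lies on chromosome 14 at 47367751 to 47386160 and had the largest fold change of the 6 genes in NRAS tumors. It measured 94.96, 84.1, 114 and 131 FPKM across NRAS tumors 1 to 4, 5.08, 12.3, 7.2 and 10.3 FPKM across PDGFB tumors 1 to 4, and 1.28, 0.698 and 0.731 FPKM across normal brains 1 to 3. The 4 NRAS tumors lay close together, within a factor of 1.56, and the 3 groups did not overlap. Its mean in NRAS tumors was 117 times that in normal brain (log2 fold change 5.81 ± 0.26 SE, adjusted p = 1.7e-07), with 0.131% of all genes tested at a higher fold change. PDGFB tumors reached 9.62 times the level of normal brain (log2 fold change 2.30 ± 0.26 SE, adjusted p = 5.55e-05). The difference between the models was the widest of the 6 genes, 12.2 times in NRAS tumors relative to PDGFB tumors (log2 fold change 3.51 ± 0.24 SE, adjusted p = 1.83e-05). The ratio of Lgals1 to Lgals3 was 5.76 to 13.2 in NRAS tumors, 8.44 to 21.6 in PDGFB tumors and 15.9 to 32.6 in normal brain, with overlap between NRAS and PDGFB tumors.

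Lgals9 on chromosome 11 at 78962974 to 78984946 and Lgals3bp on chromosome 11 at 118392751 to 118402092 are known interferon targets, and their start regions are shown because, of the 6 genes, they varied most among the NRAS tumors, by factors of 5.38 and 7.09 from lowest to highest. RefSeq start regions (GRCm38.p6) were at hand for 5 of the 6 genes, all but Lgals1. The 250 bases before the start of each are given 5' to 3' on the gene's strand (both on the minus strand), with capitals marking a match to an interferon element, followed by 30 bases around a second match in Lgals9 just after its start and, for comparison, the same 250 bases of Lgals3 (plus strand), which hold no such match.
Lgals9, chr11:78984925-78985174: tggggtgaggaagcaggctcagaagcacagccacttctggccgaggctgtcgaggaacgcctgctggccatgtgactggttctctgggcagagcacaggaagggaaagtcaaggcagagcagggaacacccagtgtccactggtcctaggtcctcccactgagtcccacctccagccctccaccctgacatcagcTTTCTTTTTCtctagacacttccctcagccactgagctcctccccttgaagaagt
Lgals9, chr11:78984890-78984919: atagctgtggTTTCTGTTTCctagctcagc
Lgals3bp, chr11:118401960-118402209: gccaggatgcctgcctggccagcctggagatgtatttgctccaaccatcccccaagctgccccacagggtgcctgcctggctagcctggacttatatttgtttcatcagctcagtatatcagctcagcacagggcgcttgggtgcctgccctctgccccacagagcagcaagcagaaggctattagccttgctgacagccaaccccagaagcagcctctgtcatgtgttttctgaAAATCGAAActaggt
Lgals3, chr14:47373610-47373859: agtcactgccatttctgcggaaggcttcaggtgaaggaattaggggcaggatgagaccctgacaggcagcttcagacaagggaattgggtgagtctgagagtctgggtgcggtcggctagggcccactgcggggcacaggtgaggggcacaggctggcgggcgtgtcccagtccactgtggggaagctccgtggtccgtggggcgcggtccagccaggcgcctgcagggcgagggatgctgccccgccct
The core of the interferon-stimulated response element, which is GAAA, any 2 bases and GAAA again, was searched on both strands and matched Lgals9 at bases -55 to -46 and 16 to 25 counted from the start, both on the opposite strand. Among 32851 RefSeq start regions of 300 bases, 3.44% held it. The shorter element AAANNGAAA, which any match of the longer one also contains, occurred in Lgals3bp at bases -15 to -7 and is present in 10.6% of start regions. Neither was found in the 300 bases of Lgals3, Lgals4 or Lgals8. The starts used for Lgals3 and Lgals8 lie well inside the gene positions given in the text, so regions before other starts of these genes were not searched. A match is only a description of these letters; binding was not measured.

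Lgals9 measured 71.0, 24.1, 129.7 and 48.1 FPKM across NRAS tumors 1 to 4, 19.5, 33.6, 17.2 and 23.1 FPKM across PDGFB tumors 1 to 4, and 5.12, 3.85 and 5.23 FPKM across normal brains 1 to 3. Both tumor types were above all normal brains, but NRAS tumor 2 lay within the range of the PDGFB tumors. Lgals9 rose in NRAS tumors (14.4 times the mean of normal brain, log2 fold change 3.36 ± 0.44 SE, adjusted p = 0.000164) and in PDGFB tumors (4.93 times, log2 fold change 2.05 ± 0.44 SE, adjusted p = 0.00233). The difference between the models was smaller, 2.93 times (log2 fold change 1.31 ± 0.41 SE, adjusted p = 0.0366). That call was lost when any one of NRAS tumors 1, 3 and 4, PDGFB tumors 1, 3 and 4 or normal brains 1 to 3 was left out (limma adjusted p up to 0.0972), and the log2 fold change was 0.92 without NRAS tumor 3. When the title number series was a covariate, the PDGFB change from normal brain was 1.14 and did not pass (adjusted p = 0.207).

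Lgals3bp measured 144, 39.0, 277 and 183 FPKM across NRAS tumors 1 to 4, 17.5, 19.2, 11.9 and 18.9 FPKM across PDGFB tumors 1 to 4, and 10.9, 11.3 and 8.1 FPKM across normal brains 1 to 3. NRAS tumor 2 was the lowest NRAS tumor by far, and all of them were above every PDGFB tumor. It rose in NRAS tumors against normal brain (15.9 times, log2 fold change 3.58 ± 0.51 SE, adjusted p = 0.000242) and was higher in NRAS tumors than in PDGFB tumors (9.51 times, log2 fold change 2.90 ± 0.47 SE, adjusted p = 0.00189). In PDGFB tumors its mean was 1.67 times that of normal brain, with no overlap of the groups, and the change did not pass (log2 fold change 0.68 ± 0.51 SE, adjusted p = 0.274, 95% interval -0.44 to 1.80). It passed when NRAS tumors were kept out of the fit (adjusted p = 0.0134) or NRAS tumor 2 was left out (0.0269), and the log2 fold change was -0.89 when the title number series was a covariate.

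Lgals8, whose product marks damaged vesicles for autophagy, changed by less than the genes above. The gene is on chromosome 13 at 12439415 to 12464944, and an exon of Lgals8 overlaps the Heatr1 gene on the other strand. Whether it meets an exon of Heatr1 was not examined. Reads of the 2 genes may mix if counting ignored strand, which the sources used here do not say. It measured 22.5, 25.1, 31.5 and 25.0 FPKM across NRAS tumors 1 to 4, 19.9, 21.2, 18.3 and 16.6 FPKM across PDGFB tumors 1 to 4, and 19.5, 16.7 and 13.97 FPKM across normal brains 1 to 3. All NRAS tumors were above both other groups, which overlapped each other. Lgals8 rose in NRAS tumors to 1.56 times the mean of normal brain (log2 fold change 0.61 ± 0.15 SE, adjusted p = 0.00462). In PDGFB tumors the change was not past the threshold (log2 fold change 0.18 ± 0.15 SE, adjusted p = 0.323, 95% interval -0.15 to 0.51). It was higher in NRAS than in PDGFB tumors (1.37 times, log2 fold change 0.43 ± 0.14 SE, adjusted p = 0.0401), a call lost when any one of NRAS tumors 2, 3 and 4, PDGFB tumors 1, 3 and 4 or normal brain 2 was left out (adjusted p up to 0.114). Heatr1 itself stood at 10.1 ± 2.4 FPKM in NRAS tumors, 10.6 ± 2.3 in PDGFB tumors and 5.1 ± 0.397 in normal brain (SD), and its log2 fold change was 0.84, 0.90 and -0.06 in the comparisons of NRAS tumors with normal brain, PDGFB tumors with normal brain and NRAS with PDGFB tumors.

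Lgals4, known best as a galectin of gut epithelium, was low in every library. The gene is on chromosome 7 at 28833854 to 28841708, and Lgals6, listed separately in the table, is a close copy of it, so reads may have been assigned to either. Lgals6 was listed at 0.056 FPKM in NRAS tumor 2 and at 7.2e-05 FPKM or less in every other library, so little was assigned to it. Lgals4 measured 1.76, 1.81, 1.62 and 2.66 FPKM across NRAS tumors 1 to 4, 0.848, 0.937, 0.628 and 1.21 FPKM across PDGFB tumors 1 to 4, and 1.87, 2.16 and 1.28 FPKM across normal brains 1 to 3. PDGFB tumors were below both other groups, which overlapped. It fell in PDGFB tumors against normal brain (log2 fold change -0.53 ± 0.18 SE, adjusted p = 0.0252) and was higher in NRAS than in PDGFB tumors (log2 fold change 0.63 ± 0.17 SE, adjusted p = 0.018), while in NRAS tumors against normal brain it did not pass (log2 fold change 0.10 ± 0.18 SE, adjusted p = 0.655). The fall in PDGFB tumors lost its call without PDGFB tumor 1 or 3 or normal brain 1 or 2 (adjusted p up to 0.116), and the difference between the models without PDGFB tumor 3 (adjusted p = 0.0608). Gut epithelium markers were low in all groups, with a summed FPKM of 5 markers of 1.64 to 2.39 in NRAS tumors, 0.405 to 1.53 in PDGFB tumors and 0.369 to 0.904 in normal brain.

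**Figure D3:**
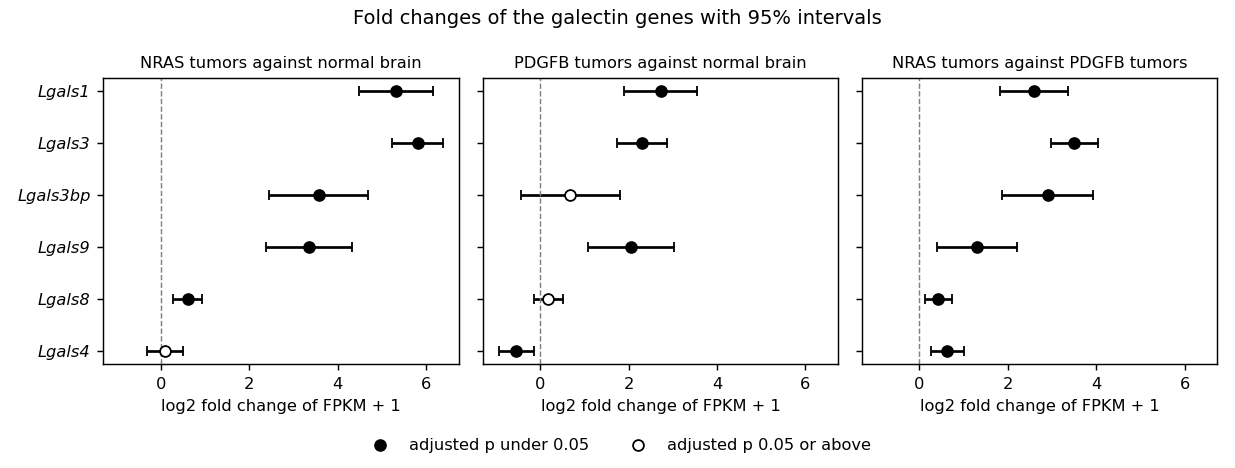
Log2 fold change of FPKM + 1 with its 95% interval (bars) for each galectin gene, in NRAS tumors against normal brain, PDGFB tumors against normal brain and NRAS tumors against PDGFB tumors. Filled points passed an adjusted p of 0.05, and Lgals3 and Lgals1 have the highest values in the first panel at 5.81 and 5.32.

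The comparisons could also be made within a title number series. In the series from 1834 to 1838, NRAS tumors 1 and 2 against the 3 normal brains gave log2 fold changes of 4.93 for Lgals1, 5.58 for Lgals3, 2.79 for Lgals3bp, 2.90 for Lgals9 and 0.50 for Lgals8. All passed except Lgals8 (adjusted p = 0.07). In the series from 2038 to 2046, NRAS tumors 3 and 4 against the 4 PDGFB tumors gave 2.99 for Lgals1, 3.73 for Lgals3, 3.68 for Lgals3bp, 1.76 for Lgals9 and 0.55 for Lgals8, of which Lgals8 did not pass (adjusted p = 0.0619). Lgals4, at 0.02 in the first and 0.71 in the second, passed in neither (adjusted p = 0.94 and 0.0711). PDGFB tumors and normal brain share no series, so that series and tumor cannot be told apart there without NRAS tumors. With the series as a covariate, which links them through the NRAS tumors, Lgals1 rose by 1.94 (adjusted p = 0.0291) and Lgals3 by 1.85 (adjusted p = 0.00968) in PDGFB tumors against normal brain.

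The 4 NRAS tumors did not carry the same galectin pattern. NRAS tumor 3 was highest for Lgals9, Lgals3bp and Lgals8, at 1.16, 1.08 and 0.27 above the mean of the 4 tumors on the log2(FPKM + 1) scale. NRAS tumor 4 was highest for Lgals1, at 1.08 above the mean, and also for Lgals3, at 0.32. NRAS tumor 2 was lowest for Lgals1, Lgals3, Lgals3bp and Lgals9. The mean log2(FPKM + 1) of 14 interferon response genes was 5.56, 3.46, 6.75 and 5.46 across NRAS tumors 1 to 4, 2.50, 4.05, 1.92 and 2.24 across PDGFB tumors 1 to 4, and 1.35, 1.22 and 1.35 across normal brains 1 to 3. Its highest library among NRAS tumors (3) and among PDGFB tumors (2) was also the highest for Lgals9, Lgals3bp and Lgals8 in each of these groups. PDGFB tumor 2 was also the highest PDGFB tumor for Lgals3. It lay above NRAS tumor 2 for the interferon list and for Lgals9, but not for Lgals3bp, Lgals8 or Lgals3. Whether interferon has a part in the level of any of these genes was not tested.

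**Figure D4:**
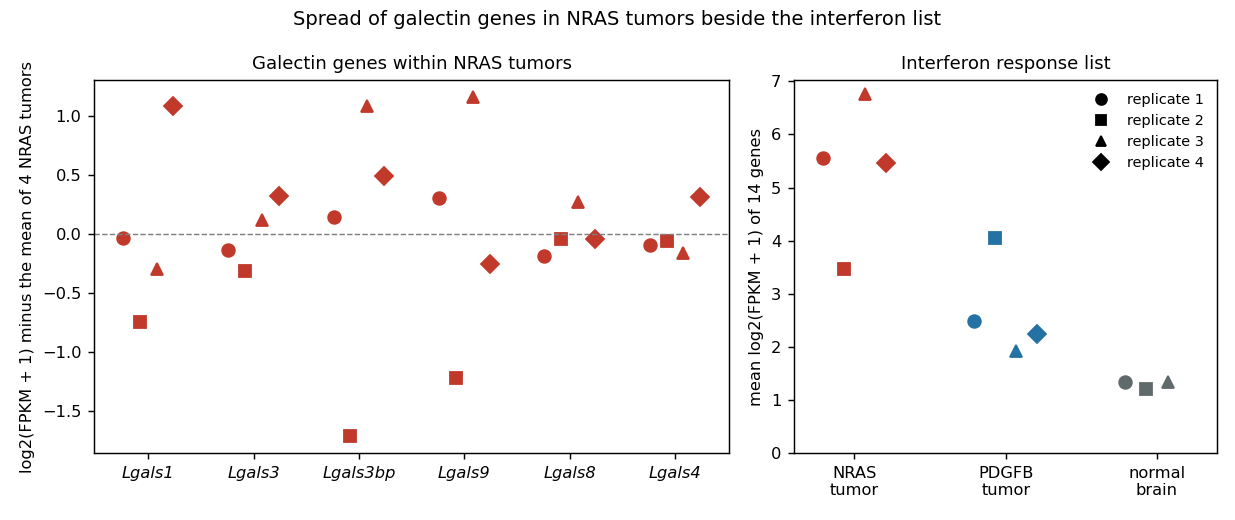
Left, log2(FPKM + 1) of each galectin gene in the 4 NRAS tumors minus their mean, with a marker shape per tumor. Right, mean log2(FPKM + 1) of 14 interferon response genes in each library of NRAS tumors, PDGFB tumors and normal brain. NRAS tumor 3 (triangle) is highest for Lgals3bp, Lgals9, Lgals8 and the interferon list, while NRAS tumor 4 (diamond) is highest for Lgals1.

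Against normal brain, the interferon response genes had 14 of 14 higher in NRAS tumors (median log2 fold change 3.95), 3 of 14 higher in PDGFB tumors (median log2 fold change 1.48), and 14 of 14 higher in NRAS than in PDGFB tumors (median log2 fold change 2.50). Over all genes 32.0%, 29.3% and 14.3% were higher in these comparisons, so the count in PDGFB tumors is no larger than the background. The median of 1.48 there stood beside 0.04 over all genes. Every PDGFB tumor was above every normal brain for all listed genes but Ifit3 and Mx1, where 33.8% of all genes were higher without overlap. Mx1 and Rsad2 would not have met the filter without the NRAS tumors, so their calls as higher there support nothing, also as part of the counts above. The chemokine gene Cxcl10 (313 ± 483 FPKM in NRAS tumors against 0.234 ± 0.156 in normal brain, log2 fold change 6.72, levels being mean ± SD of 4 tumors or 3 normal brains) and the GTPase gene Gbp2 (317 ± 379.5 FPKM in NRAS tumors against 2.19 ± 0.0709 in normal brain, log2 fold change 5.85) had the largest changes, followed by Bst2 (log2 fold change 5.03), a tether of viral particles, and the transcription factor gene Irf1 (log2 fold change 4.74). Those past the threshold in PDGFB tumors were Irf1 (log2 fold change 1.98), Bst2 (log2 fold change 1.91) and Rtp4 (log2 fold change 1.68). The count in PDGFB tumors ran from 0 to 9 with 1 library left out: it was 9 without NRAS tumor 2, 7 without NRAS tumor 3, 1 without PDGFB tumor 1, and 0 without PDGFB tumor 2 or any one normal brain. Between the models it was 9 without NRAS tumor 1 or 4 or PDGFB tumor 1 or 4, 8 without NRAS tumor 3, and 7 without PDGFB tumor 3. Irf7 (log2 fold change 2.85), Bst2 (log2 fold change 3.12), Gbp2 (log2 fold change 4.52) and Cxcl10 (log2 fold change 4.62) had the largest differences between the models.

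Of the other genes of the family, Lgalsl was the most abundant and was lower in NRAS tumors. Lgalsl, whose human product is galectin-related but does not bind galactosides, measured 17.1, 25.2, 17.4 and 10.5 FPKM across NRAS tumors 1 to 4, 33.7, 40.0, 39.4 and 38.7 FPKM across PDGFB tumors 1 to 4, and 26.9, 26.3 and 29.1 FPKM across normal brains 1 to 3. NRAS tumors were below both other groups. Lgalsl fell in NRAS tumors against normal brain (log2 fold change -0.67 ± 0.22 SE, adjusted p = 0.0195), was lower in NRAS than in PDGFB tumors (log2 fold change -1.13 ± 0.20 SE, adjusted p = 0.00292), and did not pass in PDGFB tumors against normal brain (log2 fold change 0.45 ± 0.22 SE, adjusted p = 0.0959). The fall against normal brain lost its call without normal brain 3 (adjusted p = 0.0645), while the PDGFB change passed without NRAS tumor 2 or 4 (adjusted p = 0.0338 and 0.0202). Lgals2, a neighbour of Lgals1 on chromosome 15, measured 0.683, 3.63, 1.01 and 0.147 FPKM across NRAS tumors 1 to 4, 0.642, 2.68, 2.38 and 1.99 FPKM across PDGFB tumors 1 to 4, and 0.344, 0.503 and 0.352 FPKM across normal brains 1 to 3, and passed in none of the comparisons (adjusted p = 0.261 for NRAS tumors and 0.0582 for PDGFB tumors, each against normal brain, and 0.436 between the models). Its PDGFB change was 1.001 ± 0.42 SE on the log2 scale and passed without NRAS tumor 2 or 4 or PDGFB tumor 1 (adjusted p = 0.0112, 0.0367 and 0.0239). Lgals7, a galectin of stratified epithelium, measured 9.85, 0.552, 2.004 and 1.01 FPKM across NRAS tumors 1 to 4 and is listed at 0 in all PDGFB tumors and normal brains. It passed in NRAS tumors against normal brain (limma adjusted p = 0.0147) and against PDGFB tumors (0.0239), but it met the filter only through NRAS tumors 1, 3 and 4, so it was tested because it is high there, and the calls support nothing. No fold is given. Lgals12 and Grifin did not reach 1 FPKM in any library, nor did Lgals6.

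Galectins act through glycoproteins on the cell surface and in the matrix, and 22 known binding partners were followed, all of which were tested. In NRAS tumors 19 rose against normal brain, none fell and 3 (Nrp1, Kdr and Mcam) did not pass, with a median log2 fold change of 1.75 beside 0.01 over all genes and 32.0% of all genes higher. PDGFB tumors had 7 higher, 1 lower and 14 not past the threshold (median log2 fold change 0.36), and the higher ones are near the 29.3% of all genes. Between the models 17 were higher and 2 lower in NRAS tumors (median log2 fold change 1.43), where 14.3% of all genes were higher and 12.2% lower. Receptors of immune cells were among those higher in NRAS than in PDGFB tumors. Havcr2, the T cell and myeloid receptor known as a partner of the Lgals9 product, averaged 19.0 ± 11.7 FPKM in NRAS tumors, 2.22 ± 0.631 in PDGFB tumors and 1.47 ± 0.265 in normal brain (log2 fold change 2.45 ± 0.37 SE between the models, adjusted p = 0.0013). Tnfrsf9, a costimulatory receptor, was higher as well (12.1 ± 9.22 FPKM in NRAS tumors against 0.312 ± 0.112 in PDGFB tumors, log2 fold change 3.01). Ptprc, the CD45 antigen of blood-derived cells (20.5 ± 14.5 FPKM in NRAS tumors against 1.6 ± 0.211 in PDGFB tumors, log2 fold change 2.75), and Spn, the sialophorin of leukocytes (5.06 ± 4.46 FPKM in NRAS tumors against 0.135 ± 0.0425 in PDGFB tumors, log2 fold change 2.05), followed. Tnfrsf9, Spn and another partner, Cd7, would not have met the filter without the NRAS tumors, so they were tested because they are high there. Their calls as higher in NRAS tumors support nothing, also as part of the counts above. Lag3, an inhibitory receptor that binds the Lgals3 product, rose in NRAS tumors against normal brain (24.5 ± 11.7 FPKM in NRAS tumors against 1.93 ± 0.383 in normal brain, log2 fold change 3.01).

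Cd44, Itgb1 and Fn1, partners of the matrix and of adhesion, rose in both models. Cd44, the hyaluronan receptor, stood at 72.1 ± 17.01 FPKM in NRAS tumors, 18.8 ± 3.83 in PDGFB tumors and 2.05 ± 0.0715 in normal brain (log2 fold change 4.55 and 2.68 in NRAS and PDGFB tumors). Itgb1, the common beta chain of integrins, rose in NRAS tumors (154 ± 11.9 FPKM, log2 fold change 2.53) and PDGFB tumors (161 ± 40.2, log2 fold change 2.57) against normal brain (26.0 ± 3.76). The log2 difference of Itgb1 between the models was -0.04 ± 0.16 (95% interval -0.39 to 0.32). Fn1, which encodes fibronectin, rose in PDGFB tumors (45.3 ± 11.7 FPKM in PDGFB tumors against 10.8 ± 3.07 in normal brain, log2 fold change 1.97). Mcam, an adhesion molecule of pericytes and endothelium, rose in PDGFB tumors (89.5 ± 44.1 FPKM in PDGFB tumors against 16.7 ± 7.07 in normal brain, log2 fold change 2.33) and was lower in NRAS than in PDGFB tumors (log2 fold change -1.97, adjusted p = 0.00447). The other partner lower in NRAS than in PDGFB tumors was Kdr (3.68 ± 0.138 FPKM in NRAS tumors against 6.08 ± 1.67 in PDGFB tumors, log2 fold change -0.57), a receptor of vascular growth factor. Mertk, a receptor for the uptake of dead cells, was the partner that fell in PDGFB tumors (3.97 ± 0.244 FPKM in PDGFB tumors against 10.4 ± 1.4 in normal brain, log2 fold change -1.19).

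**Figure D5:**
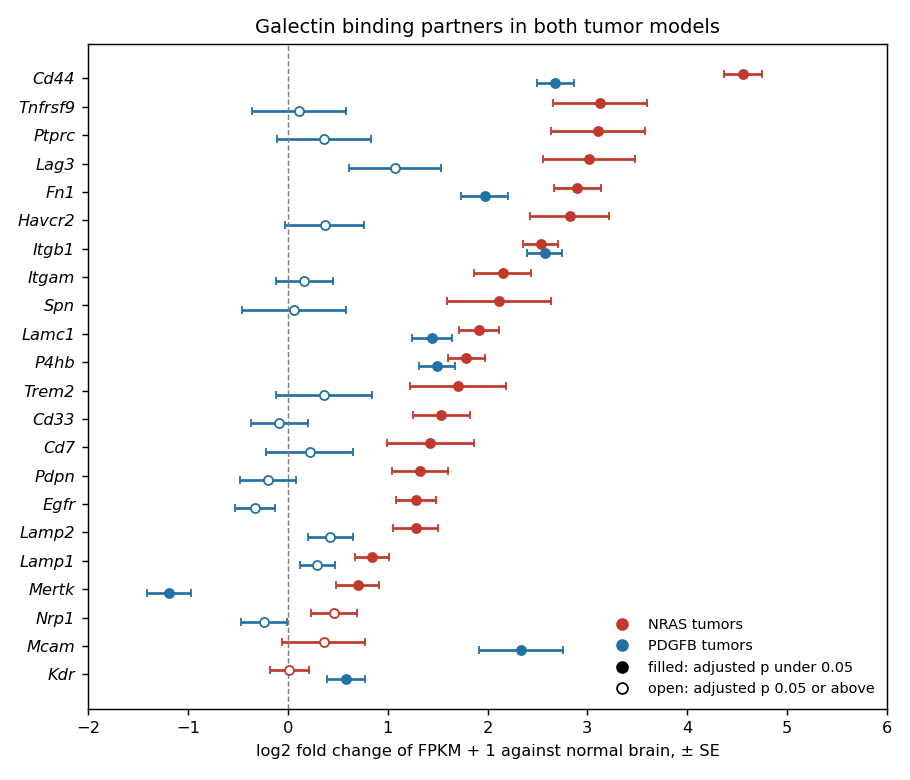
Log2 fold change against normal brain (± SE) of 22 galectin binding partners in NRAS tumors (red) and PDGFB tumors (blue), ordered by the NRAS value. Filled points passed an adjusted p of 0.05; 19 of the 22 NRAS points and 8 of the 22 PDGFB points are filled, and Itgb1 has nearly the same value in both, 2.53 and 2.57.

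The enzymes that build the galactose-bearing chains bound by galectins were followed next. Of 15 genes of N-glycan branching and poly-LacNAc synthesis, 7 rose and 2 fell in NRAS tumors (median log2 fold change 0.32), 2 rose and 4 fell in PDGFB tumors (median log2 fold change 0.16), and 7 were higher and 1 lower in NRAS than in PDGFB tumors (median log2 fold change 0.53). For this list and the next pair, the background is that 32.0% of all genes rose and 30.3% fell in NRAS tumors, 29.3% rose and 29.2% fell in PDGFB tumors, and 14.3% were higher and 12.2% lower between the models; the counts of the N-glycan list that fell in PDGFB tumors are near it. B4galt1, the main galactosyltransferase of these chains, rose in NRAS tumors (16.2 ± 7.22 FPKM in NRAS tumors against 1.81 ± 0.215 in normal brain, log2 fold change 2.48), as did the branching enzyme of O-glycans Gcnt1 (log2 fold change 1.52) and B3gnt8 (log2 fold change 1.08). B3gnt8 met the filter only through the NRAS tumors, so its calls as higher there support nothing, also as part of the counts above. Mgat3, which adds the bisecting sugar that blocks further branching, fell in NRAS tumors (14.8 ± 6.1 FPKM in NRAS tumors against 42.3 ± 1.53 in normal brain, log2 fold change -1.52) and in PDGFB tumors (log2 fold change -1.06). Mgat5, the enzyme of the branch on which galectin ligands are built (log2 fold change -1.31), B3gnt2, which extends poly-LacNAc (log2 fold change -1.19), and Gcnt2 (log2 fold change -0.94) fell in PDGFB tumors. Their number of calls in PDGFB tumors was 3 in place of 6 without normal brain 2.

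Sialyltransferases cap galactose, and the cap added by St6gal1 blocks binding of the Lgals1 product. Of 8 tested, 1 was higher and 3 lower in each tumor type against normal brain, and 2 were higher and 2 lower in NRAS than in PDGFB tumors, where 30.3% and 29.2% of all genes were lower in NRAS and PDGFB tumors against normal brain. The median log2 fold changes in the 3 comparisons were 0.07, -0.30 and 0.09. St6gal1 passed in none of them, with log2 fold changes of 0.36, 0.18 and 0.18. St6gal2 fell in NRAS tumors (log2 fold change -1.64), St3gal5 fell in NRAS (log2 fold change -1.34) and PDGFB tumors (log2 fold change -1.63), and St3gal4 rose in NRAS tumors (log2 fold change 0.94). St3gal1 fell in PDGFB tumors (1.49 ± 0.479 FPKM in PDGFB tumors against 5.98 ± 1.31 in normal brain, log2 fold change -1.49) and was higher in NRAS than in PDGFB tumors (log2 fold change 2.02). The number of calls between the models was 2 in place of 4 without NRAS tumor 4 or PDGFB tumor 3.

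Genes of the response to damaged lysosomes, in which galectins mark the torn membrane, were counted in the same way. Of 13 tested, 4 rose and 6 fell in NRAS tumors (median log2 fold change -0.30), 4 rose and 7 fell in PDGFB tumors (median log2 fold change -0.43), and 3 were higher and none lower between the models (median log2 fold change 0.22). The genes that rose are as frequent as among all genes (32.0% and 29.3%). Irgm1, an interferon-induced GTPase, had the largest change (246 ± 217 FPKM in NRAS tumors against 3.61 ± 0.562 in normal brain, log2 fold change 5.35), and it also rose in PDGFB tumors (log2 fold change 2.87). Trim16, whose human product binds that of LGALS3 at damaged vesicles, rose in NRAS tumors (4.86 ± 1.12 FPKM in NRAS tumors against 0.469 ± 0.0789 in normal brain, log2 fold change 1.97) and was higher there than in PDGFB tumors (log2 fold change 1.12). The ubiquitin pathway genes Fbxo2 (log2 fold changes -1.39 and -1.79) and Ube2ql1 (-1.72 and -1.92) fell in NRAS and PDGFB tumors. The number of calls in NRAS tumors was 6 in place of 10 without normal brain 1 or 3.

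Genes with the profile most like that of each member were found among 13591 tested genes by the root mean square difference of log2(FPKM + 1) over the 11 libraries, each profile centred on its own mean; values in parentheses are this difference. They are given as a description, since all share the same libraries and groups. For Lgals1 they were S100a11 (0.323), Capg (0.413) and Anxa2 (0.478), which encode a calcium-binding, an actin-capping and a membrane-binding protein. For Lgals3 they were Ifitm3 (0.424), Upp1 (0.471) and Lgals1 (0.591), so Lgals1 itself was among the 3 closest. The nearest to Lgals3bp were Ifi204 (0.214), Cxcl16 (0.231) and Casp1 (0.241), and the nearest to Lgals9 were Pim1 (0.266), Slfn8 (0.308) and Slc43a3 (0.32). Lgals8 was nearest to Slc22a21 (0.0823), Mgat4a (0.142) and Dscr3 (0.147), and Lgals4 to Hdac7 (0.134), Parva (0.141) and Osbpl9 (0.153). Between members, the difference was 0.591 for Lgals1 and Lgals3, 0.806 for Lgals3bp and Lgals9, and 1.09 for Lgals1 and Lgals9, and Lgals4 and Lgals8, both with flat profiles, differed by 0.371.

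Markers of other cell types also differed between the groups, not all in the order of the galectin levels, and their part in these changes was not tested. The summed FPKM of 10 monocyte and macrophage markers, a lineage rich in Lgals3, was 228 to 2142 in NRAS tumors, 57.2 to 108 in PDGFB tumors and 19.6 to 21.7 in normal brain. Of these, 9 of 10 rose in NRAS and 3 in PDGFB tumors, and none of the 10 was at 0 in all libraries. Over all genes, 32.0% rose and 30.3% fell in NRAS tumors, and 29.3% rose and 29.2% fell in PDGFB tumors. The 3 of 10 in PDGFB tumors are near that share. Cd68, a lysosomal protein of macrophages, stood at 59.3, 32.8, 68.9 and 133 FPKM across NRAS tumors 1 to 4, 19.0, 12.1, 17.5 and 30.9 FPKM across PDGFB tumors 1 to 4, and 7.93, 8.72 and 7.7 FPKM across normal brains 1 to 3. NRAS tumor 4, the highest for Lgals1 and Lgals3, was also the highest for Cd68 and for Lyz2 (1546 FPKM). Homeostatic microglia markers summed to 231 to 389.6, 94.4 to 222 and 139 to 169 FPKM in NRAS tumors, PDGFB tumors and normal brain, with 3 higher and 1 lower of 8 in NRAS tumors. The 3 higher are near the share of 32.0% over all genes. The 6 reactive astrocyte markers summed to 1812 to 2807 FPKM in NRAS tumors, 752 to 1828 in PDGFB tumors and 187 to 235 in normal brain, and all 6 rose in both models. A separate list of 6 astrocyte markers summed to 472 to 748 FPKM in NRAS tumors, 271 to 501 in PDGFB tumors and 988 to 1058 in normal brain. None of these rose, while 2 fell in NRAS tumors, near the share over all genes, and 3 fell in PDGFB tumors. T and NK cell markers (7 of 8 in the table) summed to 9.08 to 237, 0.57 to 1.88 and 1.67 to 6.96 FPKM in the same order, with Cd3e listed at 0 in the normal brains. Markers of oligodendrocyte progenitors summed to 60.6 to 355 FPKM in NRAS tumors, 472 to 562 in PDGFB tumors and 58.5 to 99.5 in normal brain.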

How the data were processed

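Tissue RNA of 11 samples was sequenced, and the authors deposited FPKM values for each. The submitters' processing notes name TopHat2 2.0.13, Cufflinks 2.2.1 and mm10, and the sources used here say nothing of settings, strand or annotation. Small RNA genes held 10.5% to 42.8% of the summed FPKM of a library. FPKM is scaled by fragments, of which their share is unknown, so how far they shift the other genes cannot be told. Of 24347 rows, 27 whose names had become dates were left out. Genes with at least 1 FPKM in at least 3 libraries (14491) were tested on log2(FPKM + 1) with limma 3.58.1 in R 4.3.3, with 1 mean per group over all 11 libraries and eBayes with trend, two-sided, adjusted by Benjamini-Hochberg. The fit was tested on simulated data. The labels' replicate numbers were not used to pair samples. Positions come from GENCODE (GRCm38). The members, gene lists and tests were chosen with earlier results of these data known. Genes named are all members, the other family genes, per list up to 4 called genes with the largest change, and 3 genes of like profile per member. Alternatives covered pseudocount, filter, scaling, blocks, title series, groups in the fit, trend and each library left out. Figures were drawn with matplotlib 3.10.9.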

Additional observations from a re-analysis of the deposited data

Results flagged for a closer look

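The change from normal brain differed between NRAS and PDGFB tumors for all 6 galectin genes, by the test of the difference itself (limma, adjusted over all genes), with the higher level in NRAS tumors: the log2 difference was 2.60 for Lgals1, 3.51 for Lgals3, 2.90 for Lgals3bp, 0.63 for Lgals4, 0.43 for Lgals8 and 1.31 for Lgals9, and every NRAS tumor was above every PDGFB tumor except for Lgals9, where NRAS tumor 2 overlapped. Over all genes, 14.3% were called higher in NRAS than in PDGFB tumors and 12.2% lower, and 12.9% were higher without overlap. The call was lost in 12 of 24 alternatives for Lgals9, 11 of 24 for Lgals8 and 3 of 23 for Lgals4. Without PDGFB tumor 3, the count of called genes was 3. Single samples stood apart from the other 3 of their group for 3 low genes: Lgals7 at 9.85 FPKM in NRAS tumor 1, Lgals6 at 0.056 FPKM in NRAS tumor 2, and Lgals12 at 0.0519 FPKM in PDGFB tumor 1. Chance marks about 1 in 20 groups in this way, and 24 groups were examined.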

How the results depend on the processing

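Lgals1 and Lgals3 kept their direction and call in all 3 comparisons under every alternative run, and Lgals3bp and Lgals9 did so in NRAS tumors against normal brain. Lgals1 ranged from 4.93 to 5.57 and Lgals3 from 5.58 to 6.75 in NRAS tumors against normal brain. The other values are log2 fold changes, and the cause was not tested where none is given. Lgals4 in NRAS tumors against normal brain turned to -0.11 (adjusted p = 0.615) with quantile normalization and ran from -0.037 to 0.20 with 1 library left out. Lgals8 there lost its call within numbers 1834 to 1838 (0.50, adjusted p = 0.07). In PDGFB tumors against normal brain, the title number series as a covariate gave -0.89 (adjusted p = 0.279) for Lgals3bp, -0.049 (adjusted p = 0.89) for Lgals8, 1.14 (adjusted p = 0.207) for Lgals9 and -0.69 (adjusted p = 0.0946) for Lgals4, with 2 members called. Lgals3bp passed with only the 2 groups in the fit (0.68, adjusted p = 0.0134), and ran from 0.54 to 0.83 with 1 library left out. Lgals4 lost its call with quantile normalization (-0.40, adjusted p = 0.0781) and ran from -0.67 to -0.43. Between the models, Lgals4 lost its call with quantile normalization (0.29, adjusted p = 0.212) and within numbers 2038 to 2046 (0.71, adjusted p = 0.0711), and ran from 0.53 to 0.71. Lgals8 lost it with the summed FPKM rescaled without small RNA genes (0.44, adjusted p = 0.0728), within numbers 2038 to 2046 (0.55, adjusted p = 0.0619) and with only the 2 groups (0.43, adjusted p = 0.058), and ran from 0.34 to 0.49. Lgals9 lost it with no filter (1.31, adjusted p = 0.0564) and with only the 2 groups (1.31, adjusted p = 0.0718), and ran from 0.92 to 1.71. Members called ran from 3 to 6 between the models with 1 library left out, the lowest without PDGFB tumor 3.

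The labels do not say that replicate numbers pair samples, and the matches named in the titles join different numbers. Deviations from the group means correlated from -0.499 to 0.158 for the same number and from -0.375 to 0.479 for other pairs. With so few libraries per group, this check cannot exclude a pairing. With the replicate number as a block, Lgals8 (0.43, adjusted p = 0.0871) and Lgals9 (1.31, adjusted p = 0.0711) lost their call between the models, and no other member changed its call. Matched samples as a random block changed no member's call. With 1 library left out, list counts ran from 6 to 10 for lysophagy in NRAS tumors, 3 to 8 for N-glycan branching and 0 to 9 for interferon response in PDGFB tumors, and 2 to 4 for sialyltransferases and 7 to 14 for interferon response between the models. Of the other family genes, Lgals2 and Lgalsl in PDGFB tumors against normal brain passed with the title series as a covariate (1.88, adjusted p = 0.0428 and 1.04, adjusted p = 0.0259), and Lgalsl in NRAS tumors against normal brain did not (-0.38, adjusted p = 0.163). Lgals7 between the models lost its call under 5 alternatives: quantile normalization (adjusted p = 0.0555), the title series as a covariate (0.123), only the 2 groups (0.0553), and without PDGFB tumor 1 (0.0511) or 3 (0.0558). Median-of-ratios scaling moved the median of all genes by -0.03 to 0.02. Read depth is unknown, so low genes such as Lgals4 rest on an unknown number of reads.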
